A study of Homo sapiens with 5 samples.

Results

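The genes examined here are 53 genes that copy DNA or prepare the cell to do so, from origin licensing and the replicative helicase to DNA polymerases, nucleotide supply and the cyclin and E2F regulators that open S phase. They were chosen by name from knowledge of the process, with earlier results of these data known. All 53 had a row in the deposited count table of 16677 genes, and all 53 passed the filter on low counts, which kept 16310 genes. All libraries came from HEK293, a human embryonic kidney line in long use that carries adenoviral early genes. The Control group held 2 libraries of the wild-type genotype, and the rs11607019 group held 3 libraries with a T-to-C change at that site, a variant the series places in SIRT3. The labels name no treatment for either group. The labels do not say whether the libraries came from separate edited clones or from repeated cultures of 1 clone, so p-values measure only the spread between these libraries, which may be technical.

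In G1 the origin recognition complex, CDC6 and CDT1 load the ring-shaped MCM complex onto DNA, and in S phase CDC45 and the GINS complex join it to form the active helicase. Polymerases alpha, delta and epsilon then copy the strands, the sliding clamp PCNA holds them to the template, and clamp loader, single-strand binding, flap-cutting and ligase proteins finish the lagging strand. Many of these genes are transcribed by E2F factors as cells pass from G1 into S phase, so their messenger RNA is often read as a sign of cycling. In cells with adenoviral early genes the retinoblastoma proteins, which restrain E2F, are bound by a viral protein.

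Library totals ran from 17122569 to 17596084 counts and TMM factors from 0.983 to 1.01. The replication genes each had at least 163 counts in every library. SIRT3 itself stood at 28.9 and 29.3 TMM-normalised CPM (counts scaled to a common library total, with TMM factors) in Control 1 and 2, and at 26.5, 15.8 and 30.2 CPM in rs11607019 1, 2 and 3, with a log2 fold change of -0.27 (SE 0.26, adjusted p = 0.815 in edgeR) that was -0.04 without rs11607019 2. Among genes listed as HEK293 markers, PAX2 stood at 9.94 to 21.97 CPM over the 5 libraries, LHX1 at 9.54 to 21.1 CPM and VIM at 328 to 618 CPM. Of 12 markers of fibroblasts, blood and endothelium 1 was measured, COL1A1, at 28.4 to 46.3 CPM. The other markers were not analysed here.

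No replication gene differed between the groups at the adjusted threshold. Most of them were slightly lower in the rs11607019 libraries, and the median difference was -8.44%. RPA3, MCM6, TIPIN, GINS2, TK1 and RRM2 stood furthest below Control, at -32.5% to -22.5%. In bulk cultures fewer cells in S phase and less RNA per cell cannot be told apart. Of the 53 genes, 42 (79.2%) had a log2 fold change below 0 and 11 above, where 49.5% of all tested genes lay below 0. The median log2 fold change, rs11607019 against Control, was -0.13 over the 53 genes and 0.00300 over all tested genes, and the 53 values ran from -0.57 for RPA3 to 0.23 for GINS4, a subunit of the GINS complex.

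Adjusted p-values in edgeR's quasi-likelihood test, adjusted over all 16310 genes by the Benjamini-Hochberg method, ran from 0.616 to 0.997, so 0 of 53 passed 0.05, as did 0.0% of all tested genes. Without adjustment 4 genes had a p under 0.05, MCM6, RPA3, GINS2 and RRM2, all lower in rs11607019. That is 7.55% of the 53, against 7.62% of all tested genes (4.11% higher and 3.51% lower), so the share was near the background. Without rs11607019 2 the count was 2 (background 4.73%). DESeq2's Wald test also called 0 of the 53 at the adjusted threshold (background 0.213%) and 3 unadjusted (background 7.4%), RRM2 not among them. The limma-voom test called 0 (background 0.0%) and 4 (background 7.24%).

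At 17 of the 53 genes (32.1%) the groups were apart without overlap, against 24.8% of all tested genes. Of these 17, 15 were lower and 2 higher in rs11607019, where 13.0% of all tested genes were lower and 11.8% higher without overlap. With 1 library left out fewer libraries have to separate, and the count was 31 without Control 1 (background 47.7%), 33 without Control 2 (56.9%) and 27 without rs11607019 3 (41.0%). The precision was enough to bound large changes only. For 52 of the 53 genes the 95% confidence interval lay within a log2 fold change of -1 to 1, and RPA3, with a lower limit of -1.01, was the exception.

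**Figure D1:**
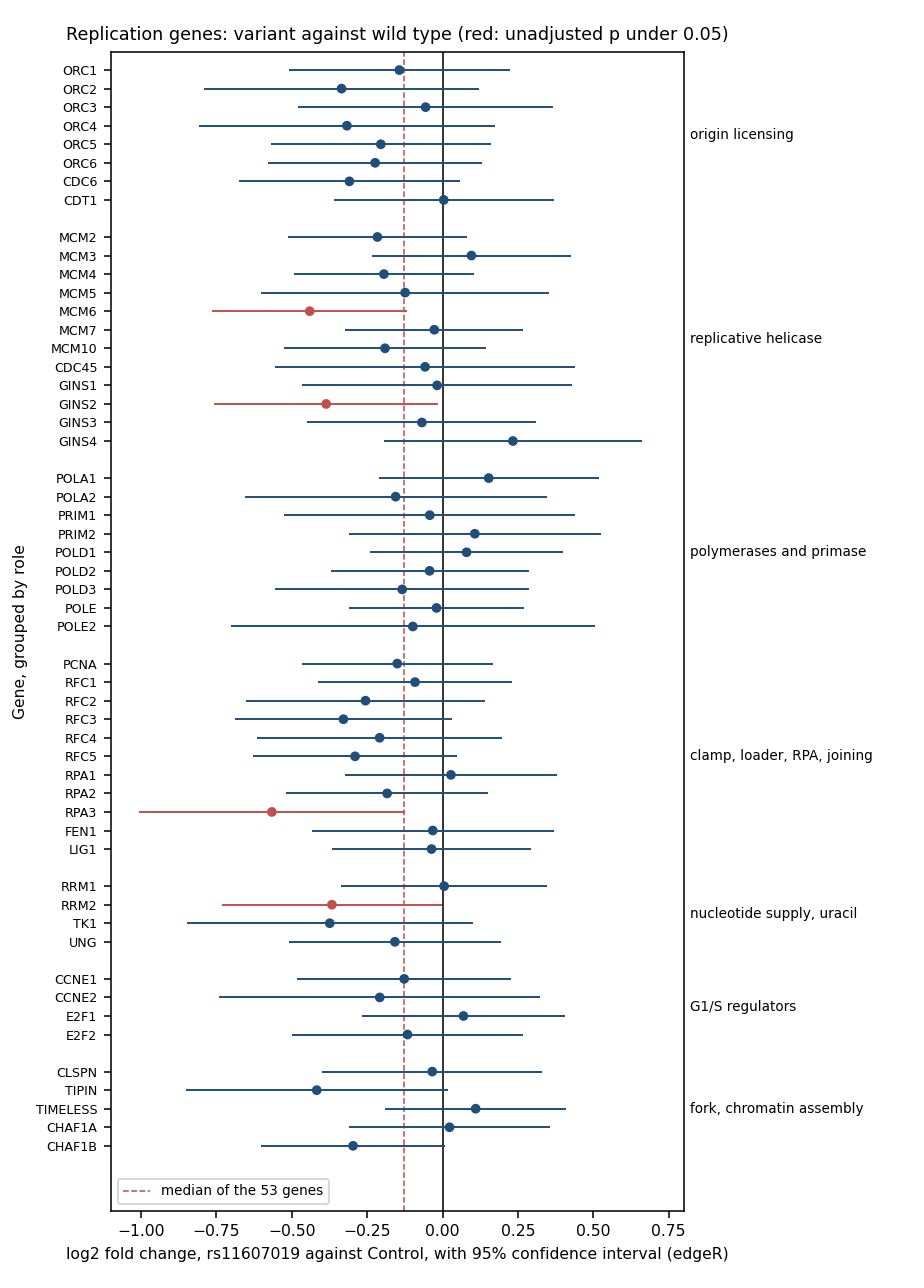
Log2 fold change of each of the 53 replication genes (points), rs11607019 against Control, with its 95% confidence interval from edgeR (lines), grouped by role on the vertical axis. MCM6, GINS2, RPA3 and RRM2, in red, had an unadjusted p under 0.05, and the dashed line marks the median of -0.13.

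Origin recognition and licensing genes were lower at 7 of 8 members (median log2 fold change -0.21, range -0.33 to 0.00397). No member had an unadjusted p under 0.05. ORC1 to ORC6 encode the subunits of the complex that marks origins, and all 6 had a log2 fold change below 0, though ORC3 was at 0.12 under the GC correction. ORC2 stood at 96.99 and 69.5 CPM in Control 1 and 2 and at 66.6, 76.5 and 54.8 CPM in rs11607019 1, 2 and 3. Its log2 fold change of -0.33 (SE 0.20, adjusted p = 0.703 in edgeR) rested on Control 1, and it was -0.07 without that library and -0.56 without Control 2. ORC6 stood at 82.8 and 91.6 CPM in Control and at 71.4, 69.98 and 82.6 CPM in rs11607019, a difference of -0.22 in log2 with groups that did not overlap. ORC5 was the other member of the group without overlap, at -0.20.

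CDC6 and CDT1 recruit the MCM complex to origins. CDC6 was the most abundant of the licensing genes in CPM, at 153 and 198 CPM in Control and at 140.2, 129.97 and 155 CPM in rs11607019, so the groups overlapped. Its log2 fold change was -0.31 (SE 0.16, adjusted p = 0.679 in edgeR), and it was -0.11 without Control 2, the highest library, and -0.48 without Control 1. CDT1 differed least, at 136 and 167 CPM in Control and 141, 143 and 171 CPM in rs11607019. The difference in log2 was 0.00397 (95% confidence interval -0.36 to 0.37), and its sign turned without Control 1, without rs11607019 3 and under the correction for GC content.

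The replicative helicase genes were lower at 10 of 12 members (median log2 fold change -0.10, range -0.44 to 0.23). Their median moved with single libraries, to -0.18 without Control 1, -0.06 without Control 2, -0.17 without rs11607019 1, -0.01 without rs11607019 2 and -0.18 without rs11607019 3. MCM6 (ENSG00000076003, chromosome 2, 135839626 to 135876426, reverse strand), a subunit of the helicase ring, had the smallest p of the 53 genes. It stood at 283 and 279.7 CPM in Control and at 205, 231 and 186 CPM in rs11607019, so all 3 rs11607019 libraries lay below both Control libraries. The group means were 281 ± 2.13 CPM (SD, n = 2) and 207 ± 22.6 CPM (SD, n = 3). The log2 fold change was -0.44 (SE 0.14, 95% confidence interval -0.76 to -0.12), with an unadjusted p of 0.0128 and an adjusted p of 0.616 in edgeR. It ran from -0.53 to -0.37 over the fits with 1 library left out. With the replicate block in edgeR, with or without the GC correction, the unadjusted p was not under 0.05. The median over the measured genes of chromosome 2 was -0.14, below that of all genes, and its part in the MCM6 value was not tested.

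GINS2 (ENSG00000131153, chromosome 16, 85676198 to 85690073, reverse strand) encodes a subunit of the complex that ties CDC45 to the MCM ring. It stood at 134 and 158 CPM in Control and at 98.7, 109 and 128 CPM in rs11607019. The groups did not overlap, though rs11607019 3 lay close to Control 1. In log2 the difference was -0.39 (SE 0.17, adjusted p = 0.642 in edgeR), with -0.26 without Control 2. GINS1, which differed least among the helicase genes, stood at 68.1 and 57.9 CPM in Control and at 77.2, 55.5 and 53.9 CPM in rs11607019, and its log2 fold change of -0.02 turned positive under the GC correction and without Control 1, rs11607019 2 or rs11607019 3.

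The 6 subunits of the MCM ring are held in equal number in the protein complex, but their counts per kilobase of exon were not equal. That length joins all annotated exons of a gene and is not the length of the transcript in use. The span given next may therefore mix transcript level with annotated length. Per kilobase of exon, Control means were 214 CPM for MCM7, 160.4 CPM for MCM3, 68.3 CPM for MCM6, 42.5 CPM for MCM5, 39.3 CPM for MCM4 and 38.6 CPM for MCM2, a span of 5.56-fold. The lower 3 of these did not differ beyond the spread of MCM5, which stood at 242 and 382 CPM in Control. MCM2 stood at 193 and 185 CPM in Control and at 164, 162 and 162 CPM in rs11607019, with a log2 fold change of -0.22 (SE 0.13, adjusted p = 0.706 in edgeR). MCM4 stood at 277 and 272 CPM in Control and at 253, 226 and 240.1 CPM in rs11607019, with a log2 fold change of -0.19. Both genes, and MCM10, which helps to start the helicase, had narrow spreads and groups that did not overlap. MCM10 stood at 87.1 and 89.2 CPM in Control and at 81.7, 72.4 and 77.5 CPM in rs11607019.

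MCM7, the most abundant of the 53 genes in CPM, stood at 868 and 1013 CPM in Control and at 887, 911 and 970.0 CPM in rs11607019, between the Control libraries. The log2 difference was -0.03 (95% confidence interval -0.32 to 0.27), and it was 0.09 without Control 2. MCM5 and CDC45, which are both on chromosome 22, were high in Control 2 and low in Control 1 and rs11607019 2. MCM5 stood at 291, 236 and 331 CPM in rs11607019, and CDC45 stood at 99.1 and 151 CPM in Control and at 127, 94.7 and 138 CPM in rs11607019. The distance between the Control libraries was larger at both genes than the distance between the group means.

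**Figure D2:**
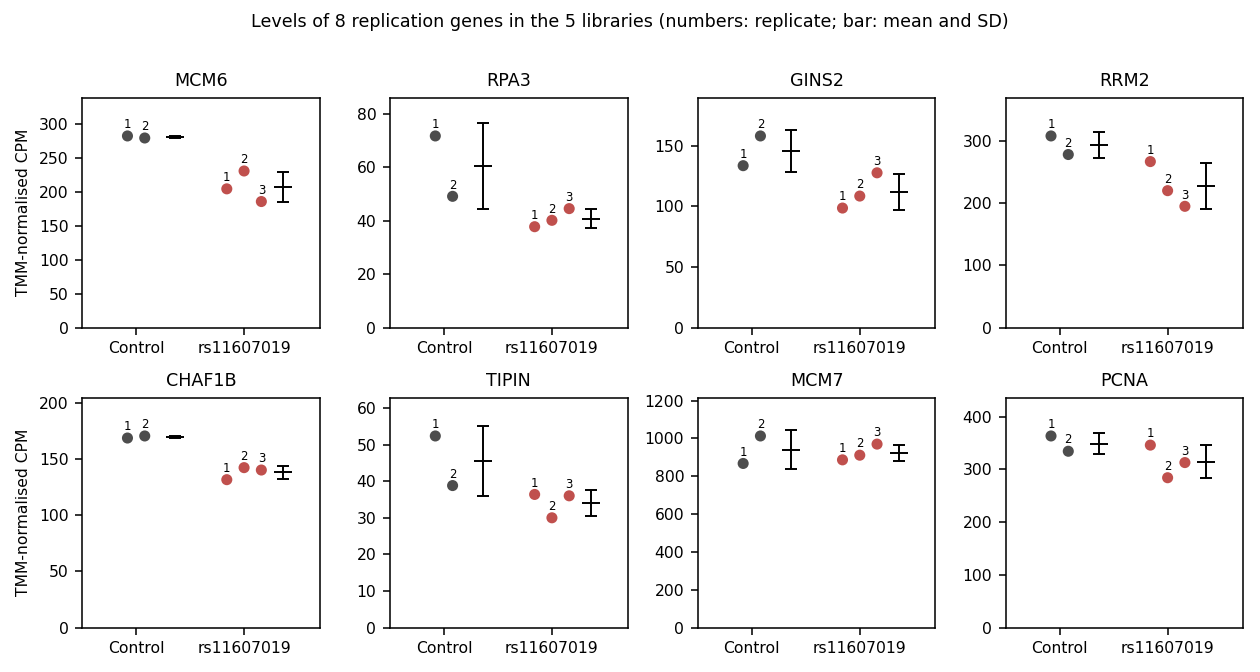
TMM-normalised CPM of 8 replication genes in each library (points, numbered by replicate), with the mean and SD of each group beside them. MCM6, RPA3, GINS2, RRM2, CHAF1B and TIPIN had groups that did not overlap, whereas the rs11607019 libraries of MCM7, at 887 to 970.0 CPM, lay between the Control libraries.

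The DNA upstream of the helicase and nucleotide genes with the smallest p shows the elements by which such genes are commonly read, and it is printed here for the 3 of the 4 genes at an unadjusted p under 0.05 that had an entry. Each sequence is the 250 bases before the RefSeq transcription start on GRCh38.p14, from 5' to 3' on the strand of the gene. Capitals mark 8-letter E2F forms (TTTCCCGC, TTTGGCGC, TTTCGCGC or TTTGCCGC) and CCAAT boxes (CCAAT), each on either strand.
MCM6 (chr2:135876444-135876693, reverse strand): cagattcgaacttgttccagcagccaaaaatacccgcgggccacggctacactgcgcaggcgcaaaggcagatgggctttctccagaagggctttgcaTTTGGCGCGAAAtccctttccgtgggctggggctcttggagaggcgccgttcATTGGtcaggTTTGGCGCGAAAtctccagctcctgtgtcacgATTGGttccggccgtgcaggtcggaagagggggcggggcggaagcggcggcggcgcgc
GINS2 (chr16:85688955-85689204, reverse strand): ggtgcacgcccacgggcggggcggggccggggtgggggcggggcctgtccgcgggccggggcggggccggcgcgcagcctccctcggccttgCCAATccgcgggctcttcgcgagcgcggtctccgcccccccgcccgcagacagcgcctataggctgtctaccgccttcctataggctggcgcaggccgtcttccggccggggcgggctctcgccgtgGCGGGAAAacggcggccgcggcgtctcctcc
RRM2 (chr2:10122489-10122738, forward strand): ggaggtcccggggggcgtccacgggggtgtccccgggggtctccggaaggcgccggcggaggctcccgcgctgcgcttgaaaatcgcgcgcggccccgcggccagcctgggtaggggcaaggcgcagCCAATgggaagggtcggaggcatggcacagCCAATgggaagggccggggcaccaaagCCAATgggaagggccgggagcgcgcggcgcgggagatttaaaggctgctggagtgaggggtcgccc
In MCM6 the run TTTGGCGCGAAA occurred 2 times, and in each the forms TTTGGCGC and TTTCGCGC overlap on opposite strands. They begin 152 and 90 bases before the start. GINS2 had 1 form, beginning 31 bases before the start, and 1 CCAAT box. RRM2 had no E2F form in this window and 3 CCAAT boxes, beginning 123, 93 and 66 bases before the start.

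Promoter windows of 300 bases, 250 before and 50 after the start, were found for 46 of the 53 genes. For these genes only the first window was used, whereas the shares over all windows and over tested genes count every window. An E2F form was present in 20 of these 46 windows (43.5%), against 3.31% of all 35116 windows in the table and 4.90% of 15764 windows of tested genes. A CCAAT box was present in 28 of the 46 (60.9%), against 34.6% of all windows. The median log2 fold change was -0.06 over the 20 genes with an E2F form and -0.15 over the 26 without, with 16 and 20 genes lower. These counts describe letters in the windows and not binding.

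DNA polymerase and primase genes lay nearest to 0 among the groups of 8 or more genes. They were lower at 6 of 9 members (median log2 fold change -0.04, range -0.16 to 0.15), and no member had an unadjusted p under 0.05. The median was 0.07 without Control 1, -0.07 without Control 2, -0.02 without rs11607019 1 and 0.03 without rs11607019 3. POLE, the catalytic subunit of the leading-strand polymerase epsilon, stood at 350.0 and 327 CPM in Control and at 326, 348 and 327 CPM in rs11607019. Its difference was -0.02 in log2 (SE 0.13, 95% confidence interval -0.31 to 0.27) and 0.03 without Control 1. Under the GC correction it was -0.23, with an unadjusted p of 0.0923 in edgeR. The values of the 2 groups lay within the same range. Its partner POLE2, the least abundant of the group in CPM, stood at 17.6 and 10.8 CPM in Control and at 13.99, 14.98 and 10.8 CPM in rs11607019.

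POLA1, the catalytic subunit of the polymerase that lays down primers, was 1 of the 2 genes of the 53 that were higher without overlap. It stood at 72.8 and 72.6 CPM in Control and at 91.7, 74.3 and 76.5 CPM in rs11607019, and the log2 fold change of 0.15 (SE 0.16, adjusted p = 0.828 in edgeR) came mainly from rs11607019 1. POLA2, its accessory subunit, stood at 23.7 and 26.5 CPM in Control and at 18.03, 21.4 and 28.1 CPM in rs11607019, so the groups overlapped at a log2 fold change of -0.16. It was -0.35 without rs11607019 3, -0.07 without Control 2 and -0.02 without rs11607019 1. The subunits of polymerase delta, POLD1, POLD2 and POLD3, had log2 fold changes of 0.08, -0.04 and -0.13. The primase subunits PRIM1 and PRIM2 had -0.04 and 0.11. The GC correction turned the signs of POLD1, to -0.11, PRIM1, to 0.17, and POLE2, to 0.02.

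Clamp, clamp loader, single-strand binding and lagging-strand joining genes were lower at 10 of 11 members (median log2 fold change -0.18, range -0.57 to 0.03). RPA3 (ENSG00000106399, chromosome 7, 7636518 to 7718607, reverse strand), the small subunit of replication protein A, which coats single-stranded DNA, had the largest difference of the 53 genes. It stood at 71.7 and 49.1 CPM in Control and at 37.7, 40.1 and 44.5 CPM in rs11607019. The groups did not overlap, but the Control libraries lay further apart than the nearest libraries of the groups. The log2 fold change was -0.57 (SE 0.20, 95% confidence interval -1.01 to -0.12), with an unadjusted p of 0.0173 and an adjusted p of 0.616 in edgeR. It was -0.27 without Control 1.

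The other subunits of the same complex lay closer to 0. RPA1, the large subunit, stood at 229 and 269 CPM in Control and at 272, 219 and 270.1 CPM in rs11607019, with a log2 fold change of 0.03 (95% confidence interval -0.32 to 0.38) whose sign turned under the GC correction and without Control 1, rs11607019 1 or rs11607019 3. RPA2 stood at 156 and 148 CPM in Control and at 124, 128 and 149.6 CPM in rs11607019, so the groups overlapped at a log2 fold change of -0.18. The difference between RPA3 and its partners was not tested.

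The 5 clamp loader genes RFC1 to RFC5, which open PCNA and close it around DNA, all had log2 fold changes below 0, from -0.33 to -0.09. RFC3 stood at 77.0 and 63.6 CPM in Control and at 55.8, 57.4 and 54.7 CPM in rs11607019. Its log2 fold change of -0.33 (SE 0.16, adjusted p = 0.659 in edgeR) was -0.14 under the GC correction and -0.19 without Control 1. RFC5 stood at 76.5 and 72.9 CPM in Control and at 59.3, 64.2 and 59.8 CPM in rs11607019, with a log2 fold change of -0.29 (SE 0.15, adjusted p = 0.676 in edgeR). Groups did not overlap at RFC1, RFC3, RFC4 and RFC5, and did at RFC2, where 24.8% of all tested genes had no overlap. At RFC4 the gap was narrow, with 53.3 CPM in Control 2 and 53.1 CPM in rs11607019 3.

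PCNA, the clamp itself and the most abundant gene of this group in CPM, stood at 363 and 334 CPM in Control and at 346, 284 and 313 CPM in rs11607019. The groups overlapped, and the log2 fold change was -0.15 (SE 0.14, 95% confidence interval -0.47 to 0.17). It was -0.08 without rs11607019 2, the lowest library, -0.09 without Control 1, and -0.03 under the GC correction. FEN1, which cuts the flaps of lagging-strand fragments, and LIG1, which seals them, had log2 fold changes of -0.03 and -0.04.

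Nucleotide supply and uracil removal was represented by 4 genes, 3 of them lower (median log2 fold change -0.26). The median rested on Control 2 and was -0.07 without it. RRM2 (ENSG00000171848, chromosome 2, 10120698 to 10131419, forward strand) encodes the small subunit of ribonucleotide reductase, the enzyme that makes deoxyribonucleotides. It stood at 308 and 278 CPM in Control and at 267, 220.1 and 195 CPM in rs11607019, without overlap. The group means were 293 ± 21.1 CPM (SD, n = 2) and 227 ± 36.5 CPM (SD, n = 3). The log2 fold change was -0.37 (SE 0.16, 95% confidence interval -0.73 to -0.00248), with an unadjusted p of 0.0487 and an adjusted p of 0.651 in edgeR. In DESeq2's Wald test the unadjusted p was 0.0598. Among edgeR fits that kept both Control libraries, it was not under 0.05 with the replicate block, with or without the GC correction. Nor was it without rs11607019 2 or without rs11607019 3. The log2 fold change of RRM2 ran from -0.50 to -0.27 over the fits with 1 library left out. RRM1, the large subunit of the same enzyme, stood at 175 and 210.1 CPM in Control and at 182, 185 and 214 CPM in rs11607019. Between the groups it differed by 0.01 in log2 (95% confidence interval -0.34 to 0.35), and its sign turned without Control 1 and without rs11607019 3.

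TK1, the thymidine kinase of the salvage pathway, stood at 144 and 213 CPM in Control and at 119, 124 and 169 CPM in rs11607019. The Control libraries differed by more than the group means did, and rs11607019 3 lay above Control 1. The log2 fold change of -0.37 (SE 0.21, adjusted p = 0.699 in edgeR) was -0.63 without Control 1 and -0.07 without Control 2. UNG, which removes uracil from DNA, had a log2 fold change of -0.16.

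The G1/S regulators among the 53 genes were the cyclins CCNE1 and CCNE2 and the activators E2F1 and E2F2. Of 4 genes 3 were lower (median log2 fold change -0.12, range -0.21 to 0.07), none had an unadjusted p under 0.05, and groups overlapped at all 4. The median was -0.07 without Control 1 and -0.06 without rs11607019 1. E2F1, an activator of S-phase genes, stood at 111 and 129 CPM in Control and at 134, 119 and 126 CPM in rs11607019. The difference was 0.07 in log2 (95% confidence interval -0.27 to 0.41), and it was -0.04 under the GC correction and without Control 1. CCNE2 stood at 13.1 and 9.64 CPM in Control and at 9.42, 9.64 and 10.4 CPM in rs11607019, and its log2 fold change of -0.21 (SE 0.24, adjusted p = 0.842 in edgeR) was 0.03 without Control 1 and -0.41 without Control 2. CCNE1 and E2F2 had log2 fold changes of -0.13 and -0.12.

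Fork protection and chromatin assembly genes lay on both sides of 0. Of 5 genes 3 were lower and 2 higher. Their median log2 fold change was -0.03, and it was -0.05 without Control 1, -0.14 without Control 2, -0.11 without rs11607019 1, 0.03 without rs11607019 2 and -0.06 without rs11607019 3. TIPIN and TIMELESS encode partners in 1 fork protection complex, and they lay on opposite sides of 0. TIPIN stood at 52.4 and 38.8 CPM in Control and at 36.4, 30.02 and 36.03 CPM in rs11607019, with a log2 fold change of -0.42 (SE 0.19, adjusted p = 0.657 in edgeR) that was -0.19 without Control 1. TIMELESS stood at 227 and 221 CPM in Control and at 256, 235 and 234 CPM in rs11607019, with a log2 fold change of 0.11 (SE 0.13, adjusted p = 0.857 in edgeR). Neither pair of groups overlapped. After the GC correction TIMELESS was at -0.03 and TIPIN at -0.24.

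CHAF1A and CHAF1B encode subunits of the factor that deposits histones on new DNA. CHAF1B (ENSG00000159259, chromosome 21, 36385378 to 36419015, forward strand) stood at 169 and 171 CPM in Control and at 132, 142 and 140.4 CPM in rs11607019. The 2 Control libraries were nearly equal and all 3 rs11607019 libraries lay below them, with a log2 fold change of -0.30 (SE 0.14, unadjusted p = 0.0560, adjusted p = 0.657 in edgeR). CHAF1A stood at 205 and 229 CPM in Control and at 199, 218 and 245 CPM in rs11607019, which overlap, with a log2 fold change of 0.02 that turned negative under the GC correction and without Control 1 or rs11607019 3. CLSPN, which passes the checkpoint signal at stalled forks, had a log2 fold change of -0.03.

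**Figure D3:**
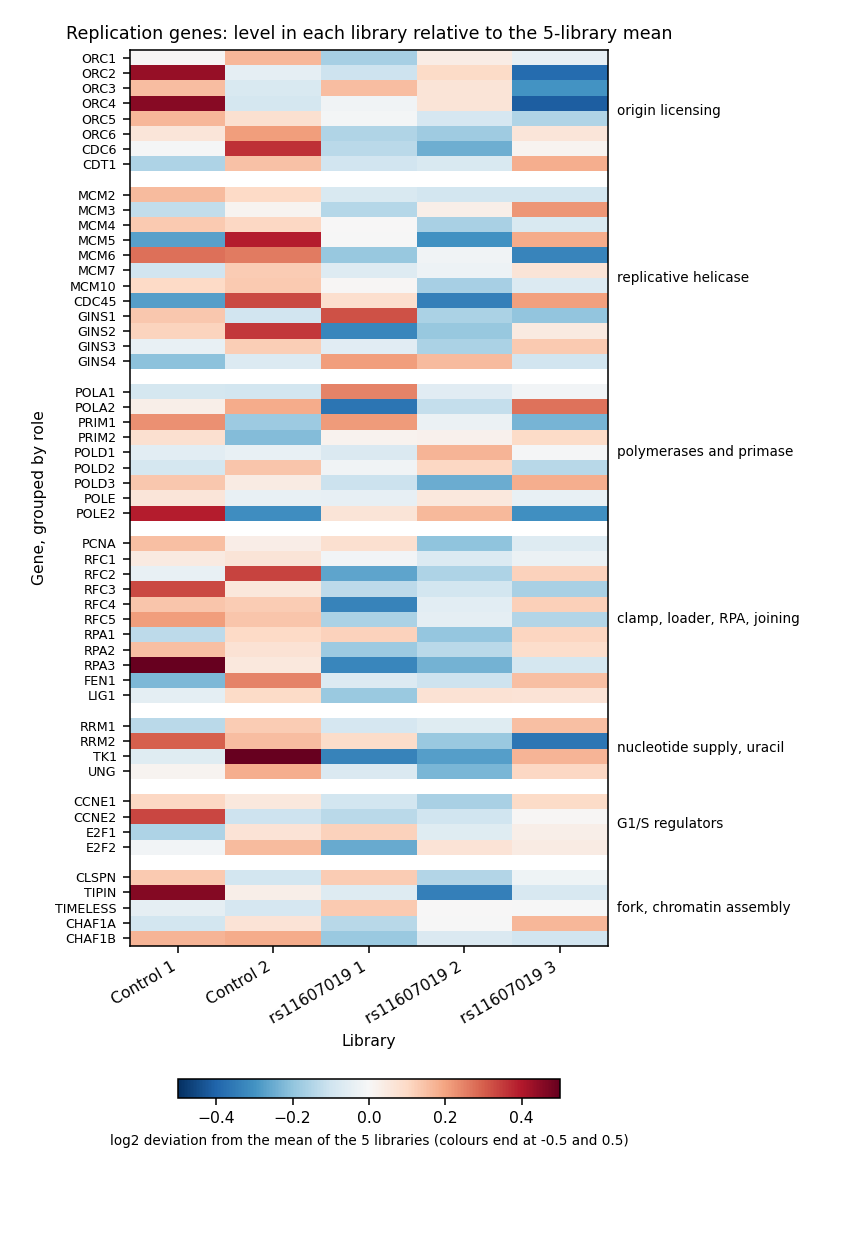
Log2 deviation of each of the 53 genes (rows, grouped by role) from its mean over the 5 libraries, by library (columns). Red cells collect in the Control columns and blue cells in the columns of rs11607019 1 and 2, with exceptions in every role group.

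Compared library by library, the 53 genes stood higher in both Control libraries and lower in 2 of the 3 rs11607019 libraries. Their median deviation from the mean of the 5 libraries, in log2, was 0.06 in Control 1 and 0.10 in Control 2. It was -0.07 in rs11607019 1, -0.08 in rs11607019 2 and -0.00252 in rs11607019 3, whereas the median over all tested genes lay between -0.01 and 0.00482 in each library. Deviations were below 0 at 21 and 14 of the 53 genes in Control 1 and 2, and at 37, 39 and 27 in rs11607019 1, 2 and 3. Control 1 held the highest value of the 5 libraries at 20 genes (37.7%, against 25.7% of all tested genes) and Control 2 at 17 (32.1%, against 15.4%). rs11607019 2 held the highest value at 1 gene, POLD1 (1.89%, against 18.3%). The lowest value lay in rs11607019 1 at 17 genes (32.1%, against 21.99%) and in rs11607019 2 at 15 (28.3%, against 18.3%). The summed level of the 53 genes was 7849 and 8454 CPM in Control and 7473, 7384 and 7900.5 CPM in rs11607019, so that rs11607019 3 lay between the Control libraries.

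**Figure D4:**
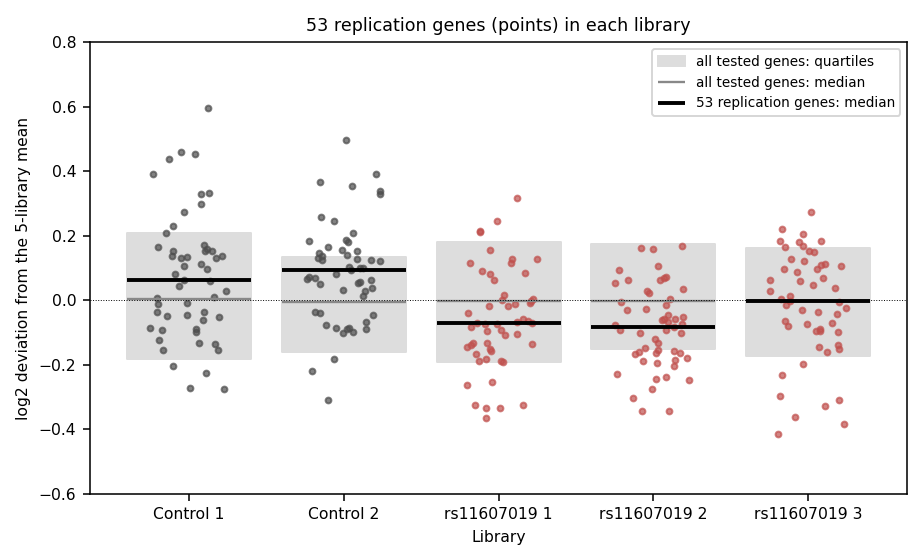
Log2 deviation of the 53 replication genes (points) from the mean of the 5 libraries, by library, with their median (black line) and the median and quartiles of all tested genes (grey). The black line is at 0.06 and 0.10 in the Control libraries and at -0.07, -0.08 and -0.00252 in the rs11607019 libraries.

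GC content moved with these deviations. Over the 53 genes, whose levels come from the same 5 libraries, the Spearman correlation of transcript GC content with the deviation was -0.65 in Control 1, 0.47 in Control 2, -0.27 in rs11607019 1, 0.04 in rs11607019 2 and 0.50 in rs11607019 3. With the log2 fold change it was 0.27, and 0.34 over 16199 tested genes. The 27 genes at or below the members' median GC content of 47.9% had a median log2 fold change of -0.19, and the 26 above it had -0.09. Once GC content and transcript length were corrected for, the order was the reverse, with -0.05 and -0.18, while the median of the 53 genes was -0.14 and 43 lay below 0 (background 52.8%). There were then 7 genes with an unadjusted p under 0.05 (background 6.54%), with CHAF1B, MCM2 and TK1 added to the former 4, and 0 passed the adjusted threshold.

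**Figure D5:**
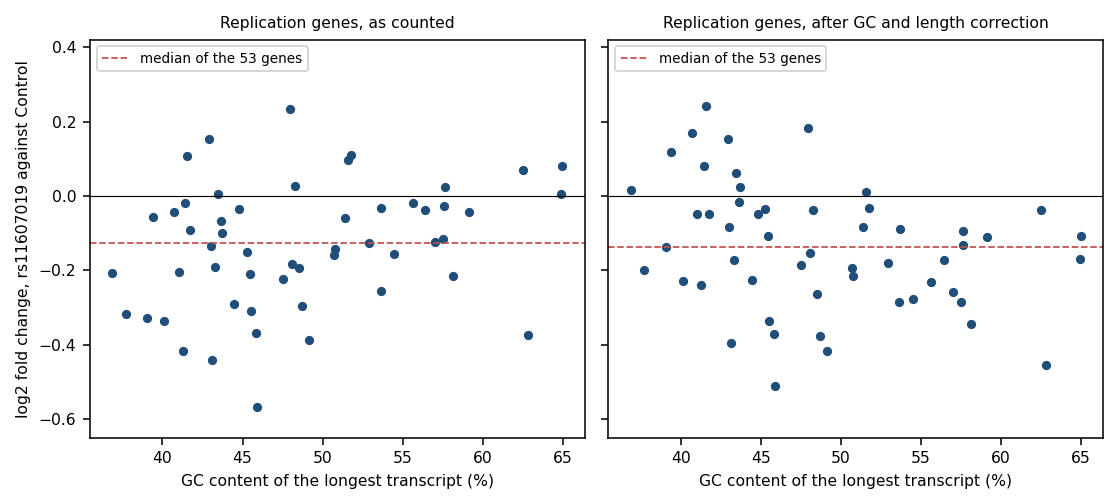
Log2 fold change of the 53 genes, rs11607019 against Control, against the GC content of the longest transcript, as counted (left) and corrected for GC and length (right). The dashed line is the median, at -0.13 on the left and -0.14 on the right, and the slope over GC content changes sign.

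Chromosome medians differed between the groups across the genome, up to 0.36 on chromosome 9 and 0.31 on chromosome 14. Of the 53 genes none is on chromosome 9 and 1, POLE2, is on chromosome 14. Outside these chromosomes the median was -0.13 and 41 genes lay below 0 (background 52.3%). Chromosome 2, with a median of -0.14, holds MCM6, RRM2, ORC2 and ORC4, and chromosome 20, with a median of 0.19, holds PCNA, GINS1 and E2F1. The part of these chromosome-wide differences in the gene values was not tested.

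Among 44 other genes of replication and S phase the same comparison gave values on both sides of 0. Of these 28 were lower and 16 higher. The median log2 fold change was -0.09, and it was 0.01 without Control 1, -0.14 without Control 2 and -0.04 without rs11607019 3. In edgeR 0 passed the adjusted threshold and 3 had an unadjusted p under 0.05 (background 7.62%), POLE4, DONSON and E2F3, and DESeq2 and limma-voom each gave 0 and 3. POLE4, an accessory subunit of polymerase epsilon, stood at 19.9 and 18.3 CPM in Control and at 26.8, 25.1 and 26.5 CPM in rs11607019, a log2 fold change of 0.45 (SE 0.18, adjusted p = 0.627 in edgeR). DONSON, a factor for helicase assembly, stood at 116 and 109 CPM in Control and at 80.04, 79.9 and 96.8 CPM in rs11607019, a log2 fold change of -0.39 (SE 0.16, adjusted p = 0.627 in edgeR). E2F3, an activator of the E2F family, stood at 106.6 and 85.5 CPM in Control and at 145.3, 117.7 and 122.9 CPM in rs11607019, a log2 fold change of 0.42 (SE 0.17, adjusted p = 0.627 in edgeR). The groups did not overlap at any of these genes, of which 2 were higher and 1 lower.

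Genes of other cell cycle phases were placed beside them. Of 27 G2/M genes 16 were higher and 11 lower, and the median log2 fold change was 0.04. In edgeR 0 passed the adjusted threshold and 2, CDK1 and HMMR, had an unadjusted p under 0.05 (background 7.62%), against 0 and 2 in DESeq2 and 0 and 1 in limma-voom. That median was -0.03 without Control 1, 0.12 without Control 2, -0.04 without rs11607019 1, 0.08 without rs11607019 2 and 0.01 without rs11607019 3. CDK1, the mitotic kinase, stood at 257 and 180.3 CPM in Control and at 143, 141 and 154 CPM in rs11607019. The log2 fold change of -0.58 (SE 0.17, adjusted p = 0.616 in edgeR) was -0.30 without Control 1 and also -0.30 under the GC correction. HMMR, a spindle protein, stood at 49.3 and 50.01 CPM in Control and at 39.7, 38.6 and 38.5 CPM in rs11607019, and its log2 fold change of -0.35 was -0.13 under the GC correction. MKI67 and TOP2A, commonly used marks of cycling cells, had log2 fold changes of 0.13 and -0.00702. Groups overlapped at both, unlike at CDK1 and HMMR, and the GC correction turned both signs, to -0.05 and 0.08.

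Of 15 genes that hold cells in G1, such as CDK inhibitors and retinoblastoma family members, 7 were higher and 8 lower. The median log2 fold change was -0.01, and it changed sign when Control 1, rs11607019 1 or rs11607019 2 was left out. It was 0.07, 0.03 and 0.02 then, -0.02 without Control 2 and -0.09 without rs11607019 3. CDKN2A, which encodes the p16 inhibitor, had the smallest p of these 3 lists and was higher in rs11607019. It stood at 157 CPM in both Control libraries and at 261, 247 and 191 CPM in rs11607019, a log2 fold change of 0.57 (SE 0.17, unadjusted p = 0.00686, adjusted p = 0.616 in edgeR). CDKN2A lies on chromosome 9, whose median was 0.36, and the part of that shift was not tested. E2F5 stood at 22.7 and 15.2 CPM in Control and at 14.3, 16.7 and 12.1 CPM in rs11607019, and its log2 fold change of -0.40 was -0.08 without Control 1 and -0.66 without Control 2. In edgeR 0 genes of this list passed the adjusted threshold and 1 of 15 (6.67%) had an unadjusted p under 0.05, near the background of 7.62%. DESeq2 (background 7.4% unadjusted) and limma-voom (7.24%) also gave 0 and 1.

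Counts of some of the 53 genes are uncertain because short reads can be shared with other genes. Exons of another gene on the opposite strand cover more than 10% of the exonic length at 5 of them, among them CCNE2. On the same strand such exons do so at 4, among them RRM2 and TIPIN. Pseudogenes that carry the gene's name in GENCODE were found for 8 genes, including PCNA, RRM2, RFC3 and RFC5. How such reads were counted is not given in the sources used here.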

How the data were processed

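Messenger RNA of 5 HEK293 cultures was measured with strand-specific single-end sequencing, per the labels' protocols. The authors deposited 1 table of whole-number read counts, not normalized. The submitters' processing notes name HISAT2, SAMtools, HTSeq and hg38, without versions. The annotation, any gene filter and the use of strand are not given in the sources used here. The lowest count was 3 and no column was left unmatched.

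Of 16677 identifiers 16627 were named from a gene name table and 46 from GENCODE release 29 (GRCh38), which gave positions, exonic lengths and GC content. Genes were filtered with filterByExpr and scaled by TMM, and group was the only term in a robust quasi-likelihood fit (edgeR 4.0.16, R 4.3.3). P-values have Benjamini-Hochberg adjustment over all tested genes and a threshold of 0.05. SE and 95% intervals come from the same fits. Deviations are of log2(CPM + 0.1), and chromosome medians use genes above 8 CPM on average. Promoter sequences are from RefSeq (GRCh38.p14). Where a gene had several windows the first was used.

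The genes and lists were chosen with earlier results of these data known. Genes given with values in every library were those with an unadjusted p under 0.05, the most abundant, most changed and least changed of each role group, up to 12 without overlap, and the 2 of smallest p of each further list. POLE2, POLA1, RPA2, MCM5, CDC45, E2F3, MKI67, TOP2A and the members given by log2 fold change alone were named after their values were seen. The edgeR fit was tested on simulated data, where 8.16% of 1.5-fold changes and 68% of 2-fold changes passed the adjusted threshold. Alternatives were DESeq2 1.42.0, limma-voom (limma 3.58.1), RLE and upper-quartile scaling, other filters, the replicate number as a block, a GC and length correction (splines of 5 degrees of freedom each), leaving out each library, and leaving out chromosomes 9 and 14.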

Additional observations from a re-analysis of the deposited data

How the results depend on the processing

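In all 15 alternatives 0 of the 53 genes passed the adjusted threshold, and their median log2 fold change stayed below 0, from -0.17 to -0.095. Under these alternatives 238 of 270 medians and counts kept their value within the spread between libraries (counts: 1.5 times). The counts include the adjusted calls of the 53 genes and of each further list, which were 0 in the main fit, so their agreement says little. Of 34 named genes, 10 changed direction in at least 1 alternative. The median SE of 0.16 in log2 limits which differences can be told apart. The causes of the shifts given here were not tested. With the GC and length correction 7 genes had an unadjusted p under 0.05, and the log2 values were -0.095 for fork and chromatin genes, -0.17 for CDT1, 0.080 for GINS1, -0.038 for RPA1, -0.037 for E2F1, -0.23 for POLE, 0.017 for CCNE2, -0.033 for TIMELESS and -0.095 for CHAF1A.

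The groups share 2 replicate numbers, and deviations of same-numbered libraries correlated at 0.12 and -0.11. The deviations of the 2 Control libraries mirror each other, so these values cannot show whether libraries were paired. Whether the numbers pair libraries is not known, and they were treated as names. The replicate block left 4 genes at an unadjusted p under 0.05 (GINS2, RPA3, TIPIN and TK1; background 9.55%). With the block the log2 values were -0.17 for licensing, -0.18 for helicase, 0.068 for polymerases, -0.19 for G1/S regulators, -0.034 for the other replication genes, -0.093 for the G1 genes, -0.084 for CDT1, 0.060 for GINS1, -0.024 for RPA1, -0.067 for RRM1 and -0.059 for CHAF1A. With block and GC correction together they were -0.17 for the 53 genes, -0.17 for licensing, -0.19 for helicase, -0.14 for fork and chromatin genes, -0.12 for the G1 genes, -0.20 for CDT1, 0.14 for GINS1, -0.11 for RPA1, -0.016 for RRM1, -0.034 for TIMELESS and -0.14 for CHAF1A.

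Leaving out 1 library gave 2 to 4 genes at an unadjusted p under 0.05 (background 3.34% to 10%) and 21 to 33 without overlap (background 34.0% to 56.9%). The log2 values then ran over -0.17 to -0.095 for the 53 genes, -0.22 to -0.15 for licensing, -0.18 to -0.012 for helicase, -0.069 to 0.073 for polymerases, -0.27 to -0.069 for nucleotide supply, -0.14 to 0.031 for fork and chromatin genes, -0.14 to 0.0053 for the other replication genes, -0.088 to 0.066 for the G1 genes, -0.14 to 0.16 for CDT1, -0.14 to 0.089 for MCM7, -0.20 to 0.10 for GINS1, -0.069 to 0.030 for POLE, -0.084 to 0.15 for RPA1, -0.12 to 0.14 for RRM1, -0.038 to 0.19 for E2F1, -0.41 to 0.026 for CCNE2 and -0.059 to 0.10 for CHAF1A. Where 1 Control library remained, it was assumed to vary like the rs11607019 libraries.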
